A study of Pleurotus ostreatus with 32 samples.

Results

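The 73 genes described here are those of the oyster mushroom *Pleurotus ostreatus* whose RNA was most clearly raised in dedifferentiated cap tissue. They were picked from the 12329 genes of the deposited count tables on CPM, the count of a gene scaled to a library total of 1 M (mega) counts. A gene was taken when its lower CPM of the 2 dedifferentiated cap libraries was at least 2 and at least 3 times its highest CPM over the 30 other libraries. The rule therefore used the level in the dedifferentiated cap and the ceiling over every other library, and all values that set the dedifferentiated cap against other tissues are given as descriptions without a test. The 73 genes made up 0.592% of the 12329.

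RNA was sequenced from the dikaryotic strain N001 in 32 libraries that fell into 11 groups. These were vegetative mycelium, stage 1 primordia, cap and stipe of stage 3 primordia, cap and stipe of young fruiting bodies, and 5 tissues of the mature fruiting body, namely cap, stipe, lamellae (gills), skin and dedifferentiated cap. There were 2 libraries of dedifferentiated cap and 3 of every other group; the labels name the dedifferentiated cap only as a fruiting body tissue and do not say how it was obtained. All groups shared the strain. Per the labels' protocols, the spawn culture had 8 h of light and 16 h of dark, a temperature of 18 to 19 °C and a humidity of 80 to 85%, and each replicate of a fruiting body tissue pooled 3 to 8 bodies. The protocols do not describe separately how the mycelium was grown or pooled. The libraries held 13.5 to 25.9 M counts, with 19.5 M and 21.0 M in the dedifferentiated cap.

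A mushroom starts as a mycelium, a network of branching and growing hyphae. Hyphae knot together into primordia, in which cap, stipe and gill tissues are laid down before the young body expands and the gills form spores. Fungal tissue is made of hyphae throughout, and pieces of a cap or stipe can return to mycelial growth when they are explanted; in this general sense a dedifferentiated tissue is one that has lost part of its tissue character. The files name genes by number only, and none of these numbers matched the gene list at hand, from assembly PC9. No list from another assembly was compared. No product, marker gene or sequence is therefore given for any gene, and the tissue labels could not be checked against marker genes.

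The 73 genes took up 2.26% and 2.82% of all counts in the 2 dedifferentiated cap libraries. In the 30 other libraries they took up 0.0556% at the lowest, 0.120% at the median and 0.226% at the highest. Both dedifferentiated cap libraries stood above all others, as the rule required of every gene. Among the other tissues the largest shares were in mycelium, with 0.203%, 0.152% and 0.226%, and in mature skin, with 0.177%, 0.177% and 0.195%. The smallest were in the stage 3 stipe, with 0.0700%, 0.0772% and 0.0556%. In bulk tissue, a different share of cells that express a gene and a different amount of its RNA per cell cannot be told apart.

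**Figure D1:**
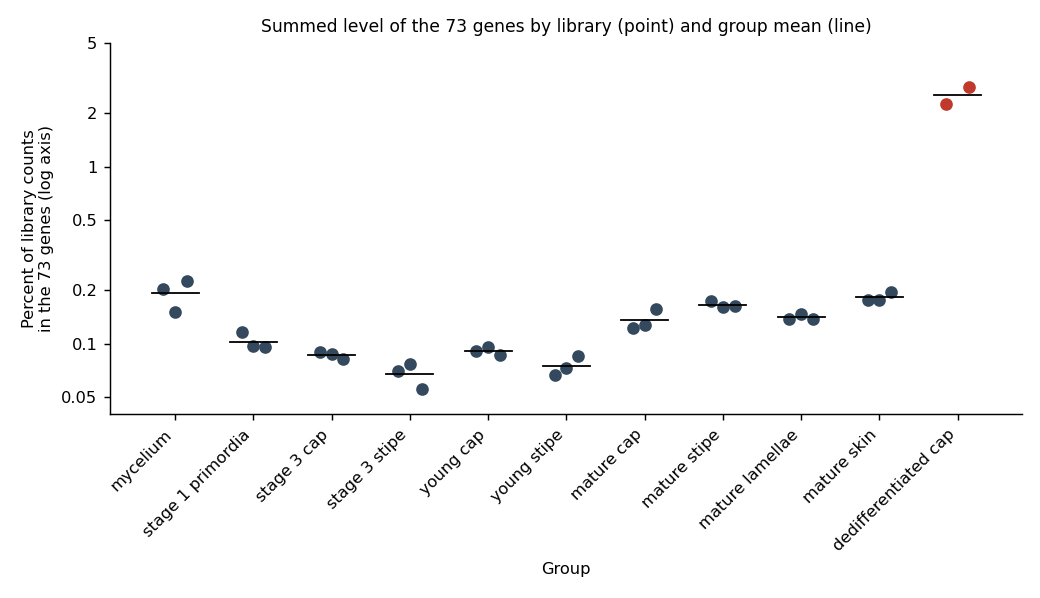
Percent of each library's counts in the 73 genes (log axis) by group, with 1 point per library and a line at the group mean. The dedifferentiated cap libraries lie at 2.26% and 2.82%, and the 30 other libraries lie between 0.0556% and 0.226%.

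The genes spanned a wide range of levels. The mean of the 2 dedifferentiated cap libraries ran from 2.96 to 1628 CPM, with a median of 230.3 CPM; it was at least 100 CPM for 56 genes, at least 500 CPM for 16 and at least 1000 CPM for 5. The lower dedifferentiated cap library stood above the highest other library by 3.00 to 47.0 times, with a median of 4.31 times. This ratio was at least 5 for 29 genes, at least 10 for 17 and at least 20 for 9. Against the mean of the mature cap, the mean in the dedifferentiated cap was 3.82 to 378 times higher, with a median of 20.7 times, over the 71 genes with counts there. Against mycelium the ratios ran from 3.89 to 1292, with a median of 14.3.

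Few of the genes were confined to the dedifferentiated cap, and most are better described as raised there. Counts above 0 were present in all 30 other libraries for 66 of the 73 genes, and 45 genes had at least 1 CPM in every one of them. The highest other library ranged from 0.148 to 367 CPM, with a median of 30.3 CPM. Only 4 genes stayed under 1 CPM in all 30 other libraries. The closest to absence elsewhere were gene 10777, listed at 0 in 21 of the 30 libraries, and gene 11226, listed at 0 in 23 of them. Gene 10777 had 26.1 and 4.001 CPM in the dedifferentiated cap and at most 0.148 CPM elsewhere. Gene 11226 had 5.80 and 4.62 CPM and at most 0.218 CPM elsewhere. Both had 0 counts in the mature cap, where a count of 0 over its 3 libraries allows up to 3 counts or 0.0591 CPM, counting error only.

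**Figure D2:**
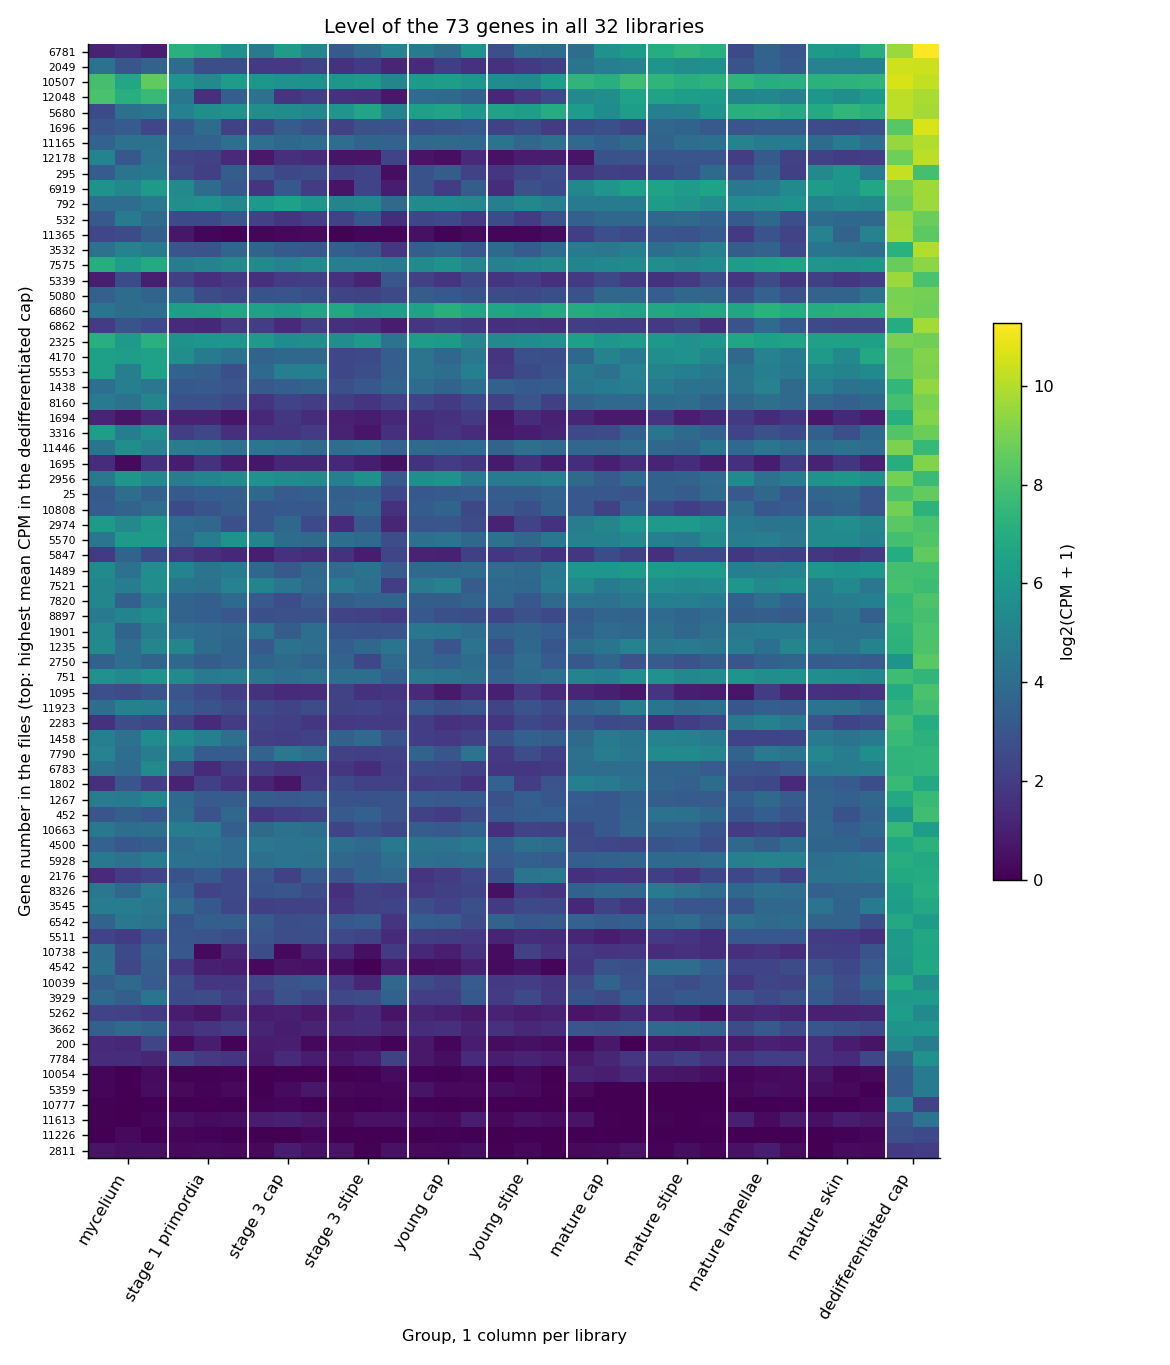
Level of the 73 genes as log2(CPM + 1) in all 32 libraries, with genes as rows ordered by mean CPM in the dedifferentiated cap and libraries as columns grouped by tissue. The right-hand pair of columns, the dedifferentiated cap, is the brightest in every row, while 66 of the rows have counts in all 30 other libraries.

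The 10 genes with the highest mean CPM in the dedifferentiated cap differed in where they were otherwise found. Gene 6781 had the highest mean, with 771 and 2484 CPM in the 2 libraries. Elsewhere it ran from 0.868 CPM, in mycelium, through a median of 28.0 CPM to 165 CPM in a mature stipe library, so that mycelium and mature stipe were far apart although neither approached the dedifferentiated cap. Gene 2049 had 1394 and 1381 CPM, the most even pair of the 10, against 1.29 CPM at the lowest, 6.52 CPM at the median and 56.0 CPM at the highest elsewhere. Its highest other value was also in mature stipe, and the lower dedifferentiated cap library exceeded it 24.7 times.

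Gene 10507 was abundant in all tissues. It had 1532 and 1220 CPM in the dedifferentiated cap and 34.2, 94.4 and 367 CPM as lowest, median and highest other value, the highest in mycelium. Fractional counts occurred for it in 16 of the 32 libraries, so some of its reads may be shared with another gene and its level is uncertain. Gene 12048, with 1129 and 909 CPM, also reached its highest other value in mycelium, at 260.1 CPM, and was as low as 0.645 CPM elsewhere, with a median of 25.1 CPM. Gene 12178 had 444 and 1129 CPM, and its other libraries ran from 0.367 through 3.22 to 32.9 CPM, again highest in mycelium.

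Mature skin held the highest other value of 3 of these 10 genes. Gene 5680 had 1148 and 874 CPM in the dedifferentiated cap and 4.85, 60.7 and 171 CPM as lowest, median and highest other value. Gene 6919 had 507 and 814 CPM against 0.515, 23.4 and 106 CPM. Gene 295 had 1249 and 247 CPM against 0.322, 5.17 and 59.8 CPM, so its dedifferentiated cap libraries were further from each other than those of the other 2.

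The remaining pair of the 10 ranged less widely over the other tissues. Gene 11165 had 724 and 1021 CPM, and 10.4, 14.7 and 31.95 CPM as lowest, median and highest other value, the last in lamellae. Gene 1696 had 324 and 1589 CPM, and 3.05, 6.03 and 15.05 CPM elsewhere. The lower dedifferentiated cap library exceeded the highest other library 22.7 and 21.5 times for these genes.

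The genes with the largest ratio over the next highest library were mostly not the most abundant. Gene 1694 had 133 and 587 CPM against 0.554, 1.37 and 2.83 CPM elsewhere, a ratio of 47.0. Gene 1695 had 129 and 567 CPM against 0.218, 1.32 and 2.93 CPM, a ratio of 44.1. Gene 5339 had 756 and 261 CPM against 0.924, 2.72 and 7.21 CPM, a ratio of 36.1. These 3 genes stayed below 10 CPM in all 30 other libraries, and their 2 dedifferentiated cap libraries were over 2-fold apart. Gene 5080, with 516 and 481 CPM against 3.55, 7.10 and 17.6 CPM, had a ratio of 27.4 and nearly equal replicates. Gene 10777 followed with 27.1 times, a value that rests on at most 3 counts in any other library, and gene 2049 completed the 6.

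The threshold of 3 times cut through a continuous range of genes. Just inside it were gene 3545 at 3.00 times (79.7 and 111 CPM against 26.5 CPM), gene 751 at 3.02 times and gene 6860 at 3.08 times. Just outside were genes 3697, 3280 and 7785, each at 3.00 times when rounded and below 3 unrounded. Gene 3280 had 570.2 and 3029 CPM in the dedifferentiated cap and 190.3 CPM in its highest other library, so its mean level was above that of each of the 73 genes. The threshold of 2 CPM lay in a gap. The lowest genes inside had 2.82 (gene 2811), 4.001 (gene 10777) and 4.62 CPM (gene 11226) in their lower library. The nearest outside were genes 8389, 11515 and 1000, with 0.0476, 0.0257 and 0.0157 CPM.

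The same rule applied to the other groups, with all libraries of a group in place of the 2 of the dedifferentiated cap, gave 167 genes for mycelium and 164 for lamellae. It gave 2 genes for mature skin, 1 for mature stipe and 0 for each of the 6 remaining groups, the mature cap among them. These counts are not on an equal footing, since a group of 3 libraries must pass in 1 library more. Tissues alike in their RNA also cap one another under the rule, so a count of 0 does not show that a group lacks raised genes.

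Per length of the gene, the order changed. In the deposited table of log2 FPKM (fragments scaled by gene length and library depth), read back as FPKM, 71 of the 73 genes had values, genes 10777 and 11226 being absent from it. The highest level by this measure was that of gene 5680, with 5763 and 4110 FPKM in the dedifferentiated cap. Gene 7575 followed with 1857 and 2784 FPKM, gene 12048 with 2449 and 1847 FPKM, and gene 6781 with 850.5 and 2566 FPKM. The median of the genes' mean was 210.0 FPKM. Gene lengths implied by the ratio of counts to FPKM were taken for genes with at least 50 counts in both dedifferentiated cap libraries. They had a median of 1214 bases over the 71 genes (middle 50% from 790 to 1717), beside 973 bases over 9101 genes (512 to 1564). This filter uses the libraries that the rule used, so the sets are not on an equal footing and no conclusion is drawn.

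The 2 dedifferentiated cap libraries differed in the level of many of the genes. They were over 2-fold apart for 26 genes, or 35.6%, against 18.4% of all 9329 genes with at least 2 CPM in both. In 17 of the 26 the second replicate was higher and in 9 the first; over 4-fold differences occurred for 8 genes. The ratio of the second to the first replicate ran from 0.153 to 6.77, with a median of 1.25. At the ends were gene 10777 at 0.153, gene 295 at 0.198, gene 6862 at 6.65 (126 and 839 CPM) and gene 3532 at 6.77 (147 and 997 CPM). With 2 libraries, the error of a gene's mean level in the dedifferentiated cap cannot be pinned down further.

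With the first library alone in the rule, 134 genes were chosen, and 73 of them, 54.5%, also passed in the second; 114, or 85.1%, stood above all 30 other libraries there. With the second alone, 237 genes were chosen, of which 73, or 30.8%, passed in the first and 206, or 86.9%, stood above all others there. Over all genes with at least 2 CPM in the second library, 15.2% of 9555 stood above all 30 other libraries there. In the first library the share was 11.5% of 9520. The 73 that pass in both are the chosen genes by definition, and all of these counts describe values that the rule used.

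**Figure D3:**
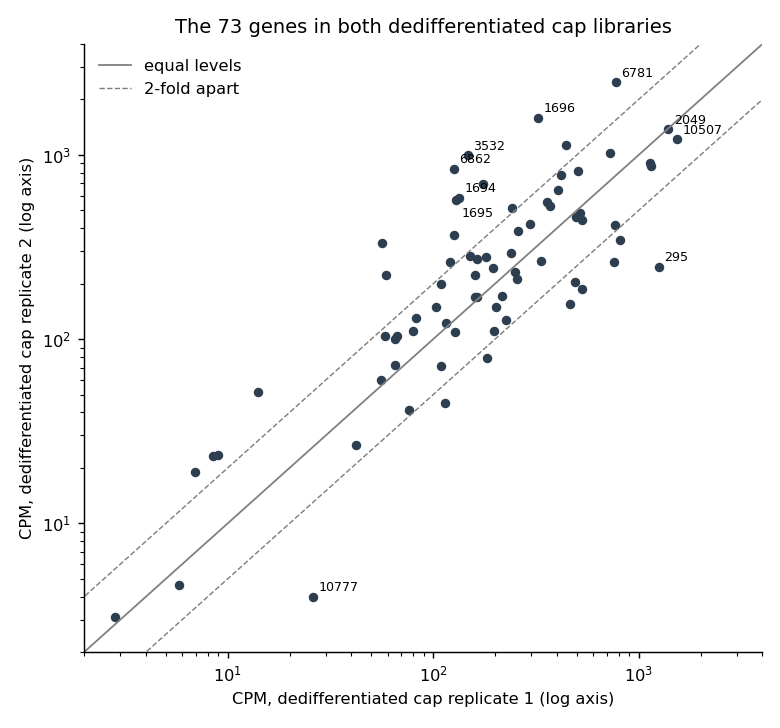
CPM of the 73 genes in dedifferentiated cap replicate 1 and replicate 2 (log axes), with a line of equal levels and dashed lines at a 2-fold difference. The points outside the dashed lines are 26 genes, 17 of them higher in replicate 2.

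Outside the dedifferentiated cap the 73 genes were highest in mycelium and in mature tissues and lowest in the stipes of stage 3 primordia and young bodies. The median over the genes of the group mean was 15.6 CPM in mycelium, 13.4 in mature skin, 12.2 in mature stipe, 9.58 in mature cap, 8.83 in lamellae and 8.31 in stage 1 primordia. It was 6.21 CPM in young cap, 5.96 in stage 3 cap, 4.53 in young stipe and 4.06 in stage 3 stipe. The highest other library was one of mycelium for 34 genes, 46.6% of them, against 29.4% of the 10529 genes with at least 2 CPM in some library outside the dedifferentiated cap. It was in lamellae for 12 genes, or 16.4% against 12.9%, and in mature skin for 9, or 12.3% against 6.18%. It was in stage 3 stipe for 1 gene, or 1.37% against 14.1%. The minimum of 2 CPM was not applied to the 73 genes. Gene 11226, for example, counted under mycelium at 0.218 CPM.

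Across the 30 other libraries, the levels of the genes were also compared with each other. The median Pearson correlation of log2(CPM + 1) between pairs of 67 of the genes was 0.302, beside 0.046 between pairs of 9911 genes of the whole table, and 31.3% of the pairs exceeded 0.5. Genes entered on a mean of at least 2 CPM over all 32 libraries, the dedifferentiated cap included. Some of the 67 genes therefore entered through their dedifferentiated cap level. Genes 1694 and 1695, for example, had medians of 1.37 and 1.32 CPM in the 30 other libraries. The 67 genes and the 9911 genes were thus not chosen on an equal footing, and no conclusion is drawn from the difference. These values describe 30 libraries that share tissues and replicate structure, and carry no test.

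The rule did not use differences among the other 10 groups beyond the common ceiling it set on their highest library, so these were tested. A gene was called when edgeR's quasi-likelihood test on the 30 libraries gave a Benjamini-Hochberg adjusted p below 0.05 over the 10754 genes tested, with at least a 2-fold change. Of the 73 genes, 70 passed the filter on low counts and entered the tests; genes 5359, 10777 and 11226 did not. A test over all 10 groups at once, with a range of at least 4-fold between fitted group means, called 43 of the 70 genes, or 61.4%, beside 54.6% of all genes tested. By this measure their variation among the other tissues was near that of genes in general. The genes not called included 5339 and 1695, whose edgeR Benjamini-Hochberg adjusted p over the 10 groups was 0.894 and 0.495. This does not show steady levels, since single libraries ran from 0.924 to 7.21 CPM and from 0.218 to 2.93 CPM.

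Of the 7 comparisons made, that between mycelium and stage 1 primordia called the most of the 70 genes, as it did of all genes. From mycelium to stage 1 primordia 31 genes fell and 5 rose, 51.4% of the 70 in all beside 47.5% of all genes tested. The 31 were 44.3% of the 70, beside 26.5% of all genes tested that fell; the 5 compare with 21% of all genes that rose. The median log2 fold change was -0.97 over the 70 genes and -0.06 over all genes tested. The genes that rose were 792, 5680, 11613, 6860 and 6781. Of these, gene 11613 was a marginal call, with at most 0.124 CPM in mycelium, at most 0.429 CPM in stage 1 primordia and an edgeR Benjamini-Hochberg adjusted p of 0.0495. Its call was lost under 26 of 36 other settings, over which the adjusted p ranged from 0.0257 to 0.126.

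Gene 12048 had 260.1, 135 and 190.3 CPM in the mycelium libraries and 20.9, 1.96 and 9.33 CPM in stage 1 primordia. The groups did not overlap, and the log2 fold change was -4.26 ± 0.69 (SE, n = 3 and 3; edgeR, Benjamini-Hochberg adjusted p = 1.37e-05). Gene 11365 fell by 4.53 and gene 3316 fell by 4.04 on the log2 scale. Gene 6781 went the other way, with 1.098, 1.81 and 0.868 CPM in mycelium and 142, 111 and 50.4 CPM in stage 1 primordia. It rose by 6.19 ± 0.82 on the log2 scale (SE, n = 3 and 3; edgeR, Benjamini-Hochberg adjusted p = 1.01e-06), again with no overlap. Gene 6860, one of those just inside the 3-fold threshold, rose by 2.27 on the log2 scale, from 18.6, 14.8 and 15.8 CPM to 77.8, 83.4 and 97.9 CPM.

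Between mycelium and the mature cap fewer genes differed. There 17 genes were lower in the cap and 6 higher, or 24.3% and 8.57% of the 70, beside 21.7% and 14.5% of all genes tested. In either direction that was 32.9%, beside 36.2% of all genes. The shares were near or below those of all genes. Gene 3545 had 26.5, 25.5 and 21.5 CPM in mycelium and 1.46, 3.48 and 2.37 CPM in the mature cap, a log2 fold change of -3.23 ± 0.46 (SE, n = 3 and 3; edgeR, Benjamini-Hochberg adjusted p = 3.68e-06). Gene 6781 was again the gene furthest up, by 5.25 ± 0.80 (adjusted p = 7.87e-06 by edgeR, Benjamini-Hochberg), with 15.4, 50.9 and 70.1 CPM in the cap. This comparison shares its mycelium libraries with the preceding one.

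From stage 1 primordia to the stage 3 cap 6 genes fell and 1 rose, or 8.57% and 1.43% of the 70, beside 3.26% and 1.86% of all genes tested and 5.12% in either direction. The counts are small. An unadjusted edgeR p below 0.05 occurred for 18 genes, but the share over all genes was not counted, so nothing is read from it. Gene 1458 had 39.8, 27.7 and 16.6 CPM in stage 1 primordia and 3.41, 3.19 and 3.63 CPM in the stage 3 cap. It fell by 3.01 ± 0.33 on the log2 scale (SE, n = 3 and 3; edgeR, Benjamini-Hochberg adjusted p = 6.05e-06), with no overlap between the groups. Gene 5553, the 1 gene that rose, had 11.1, 9.55 and 5.70 CPM in stage 1 and 13.3, 28.4 and 27.8 CPM in the stage 3 cap, a log2 fold change of 1.45 ± 0.44 (SE, n = 3 and 3; edgeR, Benjamini-Hochberg adjusted p = 0.0487). Its call was lost under 23 of 36 other settings, over which the adjusted p ranged from 0.0155 to 0.232.

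From young to mature cap, 25 genes rose and 3 fell, 40% of the 70 beside 36.2% of all genes tested. The 25 were 35.7% of the 70, beside 17.6% of all genes tested; the 3 were 4.29%, beside 18.6% that fell. The median log2 fold change was 0.71 over the 70 genes and -0.05 over all genes tested. Gene 2049 had 1.63, 3.26 and 2.00 CPM in the young cap and 19.0, 27.0 and 31.0 CPM in the mature cap, a rise of 3.70 ± 0.40 on the log2 scale (SE, n = 3 and 3; edgeR, Benjamini-Hochberg adjusted p = 2.27e-07). Gene 1458, which was low in the stage 3 cap, had 3.31, 2.61 and 3.53 CPM in the young cap and rose by 2.84 on the log2 scale to 13.8, 24.2 and 20.04 CPM. Neither gene's groups overlapped, and the mature cap levels were still far below the dedifferentiated cap, where gene 1458 had 201 and 150.03 CPM. Gene 11365 rose by 4.46 and gene 6919 by 3.51 on the log2 scale.

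The 3 genes that fell were 4500, 2956 and 5511. Gene 4500 had 19.0, 18.4 and 23.3 CPM in the young cap and 5.23, 4.22 and 3.93 CPM in the mature cap, a log2 fold change of -1.99 ± 0.30 (SE, n = 3 and 3; edgeR, Benjamini-Hochberg adjusted p = 1.31e-05). Of the 31 genes that fell from mycelium to stage 1 primordia, 15 rose again from young to mature cap; these comparisons share no libraries. The 15 were 48.4% of the 31 and 60% of the 25 genes that rose. Among all genes tested, the corresponding overlap of 1019 genes was 35.7% and 53.8% of the respective lists.

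**Figure D4:**
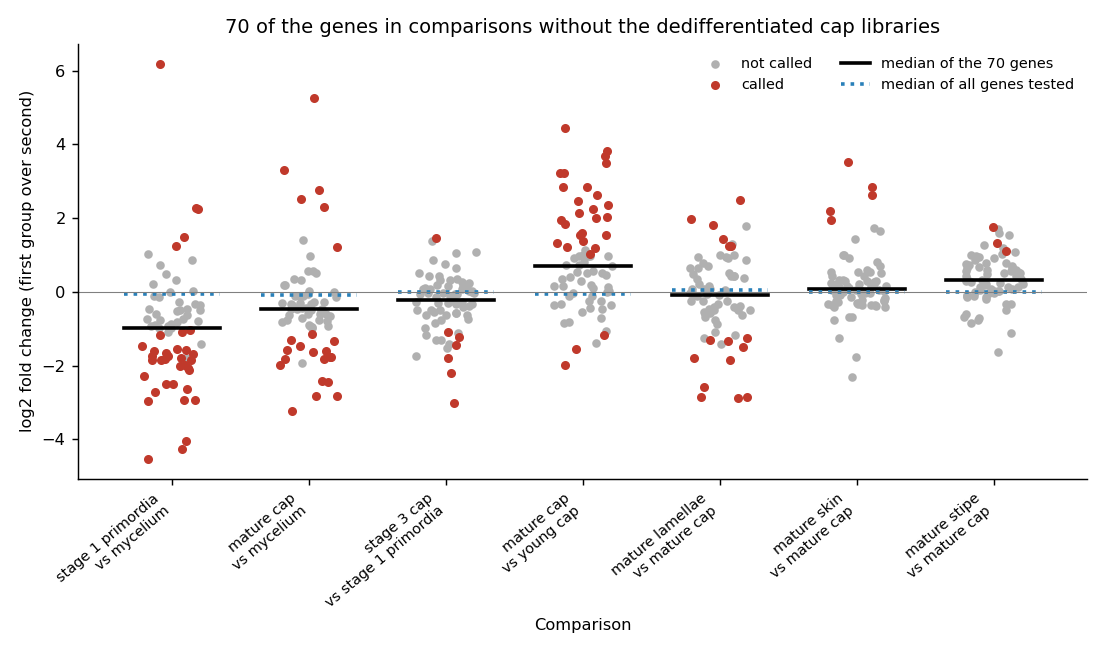
Fitted log2 fold change of 70 of the genes in 7 comparisons among the groups other than the dedifferentiated cap, with called genes in red, others in grey, a black line at the median of the 70 genes and a dotted line at the median of all genes tested. The black line lies at -0.97 for stage 1 primordia over mycelium and at 0.71 for mature over young cap, and the dotted lines lie close to 0.

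Within the mature fruiting body, 3 tissues were compared with the cap, and these comparisons share the mature cap libraries. In lamellae 6 genes were higher and 10 lower than in the cap, or 8.57% and 14.3% of the 70, beside 14.8% and 12.7% of all genes tested and 27.5% in either direction. When libraries were scaled by their totals alone, 12 were higher and 10 lower, beside 2177 and 959 of all genes. The median log2 fold change of all genes moved from 0.04 to 0.28, so the balance of directions in lamellae depends on the scaling. Gene 5511 had 7.69, 7.46 and 7.47 CPM in lamellae and 1.32, 0.834 and 1.25 CPM in the cap, a log2 fold change of 2.50 ± 0.29 (SE, n = 3 and 3; edgeR, Benjamini-Hochberg adjusted p = 3.5e-07). Gene 1802 had 5.04, 4.50 and 1.58 CPM in lamellae and 28.4, 23.9 and 17.4 CPM in the cap, a log2 fold change of -2.88 ± 0.57 (SE, n = 3 and 3; edgeR, Benjamini-Hochberg adjusted p = 0.000345). Neither gene's groups overlapped.

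In the skin 5 genes were higher than in the cap and 0 lower, or 7.14% higher, beside 3.5% of all genes tested that were higher, 1.12% that were lower and 4.61% in either direction; 14 genes had an unadjusted p below 0.05. Besides gene 295, these were genes 2176, 3545, 11365 and 2956; gene 11365 lost its call without mature cap replicate 1 or mature skin replicate 3. Gene 295 had 38.3, 59.8 and 24.3 CPM in the skin and 2.37, 3.34 and 3.12 CPM in the cap, a log2 fold change of 3.52 ± 0.61 (SE, n = 3 and 3; edgeR, Benjamini-Hochberg adjusted p = 0.000446). Gene 2176 had 17.5, 18.0 and 20.01 CPM in the skin and 1.95, 2.21 and 2.37 CPM in the cap, a log2 fold change of 2.85. In both genes the skin libraries were all above the cap libraries.

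In the mature stipe 3 genes were higher than in the cap, namely 3545, 792 and 5511, and 0 were lower. They were 4.29% of the 70, beside 1.39% of all genes tested that were higher, 0.251% that were lower and 1.65% in either direction. An unadjusted edgeR p below 0.05 occurred for 16 genes, again without a count over all genes. Gene 3545 had 9.78, 6.86 and 7.17 CPM in the stipe, all above the 1.46, 3.48 and 2.37 CPM of the cap, with a log2 fold change of 1.76 ± 0.44 (SE, n = 3 and 3; edgeR, Benjamini-Hochberg adjusted p = 0.0383). Its adjusted p ran from 0.00587 to 0.256 over the other settings, and the call was lost when replicate 1 or 3 of the mature cap, or 1 or 2 of the mature stipe, was left out. Gene 792 had 73.2, 57.2 and 44.5 CPM in the stipe and 24.9, 24.2 and 25.2 CPM in the cap, 1.33 higher on the log2 scale (edgeR, Benjamini-Hochberg adjusted p = 0.0042). Its call was lost without mature stipe replicate 1, where the edgeR Benjamini-Hochberg adjusted p was 0.0547, and without that library 0 genes were called. Gene 5511, with an edgeR Benjamini-Hochberg adjusted p of 0.0451, lost its call under 23 of 36 other settings.

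Genes 1694, 1695 and 1696 carry consecutive numbers, and were singled out after their values were seen. The second dedifferentiated cap library was 4.41, 4.39 and 4.91 times the first for these 3 genes, a difference of like size in all 3. Over the 30 other libraries the Pearson correlation of log2(CPM + 1) was 0.551 between 1694 and 1695 and 0.127 between 1695 and 1696, at levels of a few CPM. The genes numbered beside them were different. Gene 1693 had 623 and 454 CPM in the dedifferentiated cap against 666 CPM in its highest other library, and gene 1697 had 38.4 and 85.6 CPM against 127 CPM.

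Apart from these 3, the closest numbers among the 73 genes were 6781 with 6783 and 6860 with 6862, whose correlations over the 30 libraries were -0.06 and -0.02. Gene 6782, between the first pair, had 31.5 and 38.9 CPM in the dedifferentiated cap against at most 20.03 CPM elsewhere, above all other libraries but short of 3 times. The files do not say whether gene numbers follow the order along the genome. For comparison, genes of the whole table were taken when their mean over all 32 libraries, the dedifferentiated cap included, was at least 2 CPM. Their median Pearson correlation over the 30 libraries was 0.142 for numbers 1 apart, 0.077 for numbers 2 apart and 0.055 for numbers 10 apart.

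**Figure D5:**
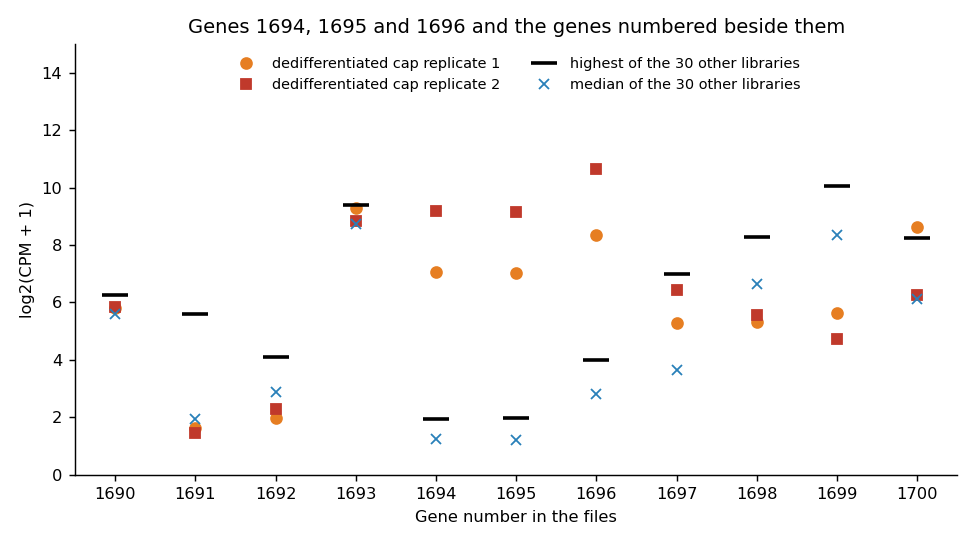
Level as log2(CPM + 1) of the genes numbered 1690 to 1700 in the dedifferentiated cap replicates (circle and square), with a bar at the highest and a cross at the median of the 30 other libraries. Both replicates of genes 1694, 1695 and 1696 lie above the bar, with replicate 2 higher in all 3.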

How the data were processed

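Poly(A) RNA libraries of 32 samples were strand-specific per the labels' protocols. The authors deposited a table per library of expected counts (estimated, in part fractional) for 12329 genes; 95.2% of all nonzero values were whole to within 1e-06. Fractional counts occurred for 15 of the 73 genes, in at least 1 library. The authors also deposited a table of log2 values, by its name FPKM, for 10755 genes, with values down to -8.87. Where that table was used, its log2 values were raised back to FPKM. The submitters' processing notes name STAR, featureCounts, R 3.0.2, edgeR 3.4.2 and limma 3.18.13, with no roles; neither the step that gave fractions nor the genome build is given in the sources used here.

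Groups came from the sample titles. The titles number the dedifferentiated cap libraries 1 and 2, while their descriptions carry 2 and 3; the title numbers are used. No source says whether replicates came from separate cultures, so p-values measure the spread between libraries within groups, estimated over all 10 groups. Pooling is described for the fruiting body tissues only. Genes were chosen on CPM of the counts as deposited. For tests, counts were rounded to whole numbers and fitted for 30 libraries in 10 groups, without the dedifferentiated cap, in edgeR 4.0.16 under R 4.3.3 (filterByExpr, TMM, robust quasi-likelihood fit, 20 residual degrees of freedom). The fit was also run on simulated counts in which a small set of genes differed in lamellae alone. That setting lacks the many differences between groups seen here, so it does not check the other comparisons. The SE of a log2 fold change is approximated as its size over the square root of F. Alternatives included DESeq2 1.42.0, other scalings, filters and thresholds, and leaving out each library.

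The genes named are the 10 most abundant in the dedifferentiated cap, the 6 with the largest ratio over the next highest library, the 3 nearest each threshold on either side, the called gene furthest each way per comparison (mean counts of 10 or more in each of the 2 groups), and the 2 at each end of the replicate ratio; further genes were chosen after their values were seen. The genes and lists were chosen with earlier results of these data known. Of the reference list's 11849 genes, from assembly PC9, 0 matched an identifier of the files. Intervals and limits for a count of 0 cover counting error only.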

Additional observations from a re-analysis of the deposited data

How the results depend on the processing

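The number of genes that pass the rule depended mainly on its fold threshold and on having both dedifferentiated cap libraries. It was 197 at 2 times and 29 at 5 times the highest other library. It was 68 with TMM-scaled totals (59 of them among the 73 genes), 84 with DESeq2 size factors (63 shared) and 66 from the deposited FPKM (57 shared). Leaving out 1 library gave 73 to 237 genes: 237 without dedifferentiated cap replicate 1, 134 without replicate 2, and 91 without mycelium replicate 3. The share chosen on the first dedifferentiated cap library that passed in the second was 70.4% at 2 times, and 53.2% to 58.3% with 1 other library left out. From the second to the first it was 37.4% at 2 times, and 30.2% to 34.0%.

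With a 4-fold threshold in place of 2-fold, the genes called fell to 16 for stage 1 primordia against mycelium, 10 for mature cap against mycelium, 2 for stage 3 cap against stage 1 primordia, 15 for mature against young cap, 5 for lamellae against mature cap and 0 for mature stipe against mature cap. An 8-fold range called 26 genes over the 10 groups, beside 3175 of all genes tested. Scaling by library totals alone gave 8 genes for skin and 2 for stipe against mature cap, beside 599 and 142 of all genes. No low-count filter also gave 2 for stipe, beside 175 of all genes. Scaling by totals moved the median log2 fold change of all genes from -0.05 to -0.24 between young and mature cap. There 23 genes rose and 5 fell, beside 1495 and 2525 of all genes. The DESeq2 test called 37, 23, 9, 29, 17, 6 and 3 genes in the 7 comparisons and 46 over the 10 groups. Of all genes it called 5200, 4047, 719, 4067, 3164, 626 and 334 in the 7 comparisons and 5972 over the 10 groups. With all-gene counts not given for these fits, leaving out 1 library gave 30 to 42, 19 to 25, 3 to 7, 25 to 32, 14 to 19, 4 to 6 and 0 to 3 genes, and 41 to 47 over the 10 groups. For stage 3 cap against stage 1 primordia it was 3 without stage 1 primordia replicate 1 and 4 without each stage 3 cap library. For mature stipe against mature cap it was 0 without mature stipe replicate 1, and 1 without mature stipe replicate 2, mature cap replicate 1 or mature cap replicate 3. No direction of a named gene's change reversed under the settings run. At the 2-fold threshold, 87 of the 118 calls in the 7 comparisons were kept under all 36 other settings and 31 were lost under at least 1. Of the genes named as furthest each way, those that lost a call were gene 5553 in the stage 3 cap and gene 3545 in the stipe. At the 4-fold threshold genes 4500, 2956 and 5511 were no longer called as lower in the mature than the young cap, and genes 5553, 3545, 792 and 5511 lost their calls as higher in the stage 3 cap or the stipe.

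Replicate numbers did not pair the samples in all comparisons: the correlations of deviations from group means ran from -0.57 to 0.61, and 7 of 21 libraries correlated best with their own number. Between lamellae and mature cap they were 0.593, 0.613 and -0.100 for replicates 1, 2 and 3. Whether these libraries came from the same bodies was not tested. With the replicate block 36, 24, 6, 28, 17, 5 and 2 genes were called in the 7 comparisons, and 43 over the 10 groups. Of all genes, 5063, 3851, 530, 3855, 2970, 484 and 170 were called, and 5766 over the 10 groups. Gene 5553 had an edgeR Benjamini-Hochberg adjusted p of 0.0612 with this block. The 2 libraries give little information on the spread of the dedifferentiated cap, and the values of genes 10777 and 11226 elsewhere rest on at most 3 counts per library.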
